A study of Mus musculus with 2 samples.

Results

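Mouse chromosome 13 carries genes of unrelated function, among them cyclin B1, geminin, enzymes of sterol synthesis, a dense cluster of zinc finger genes, and families used mainly in the placenta or the liver. The genes described here were the 417 detected genes of chromosome 13 among the 12161 detected genes of the whole series. They were found by the mm9 position that the scanner files give for each probe, with GeneName entries beginning Hist1h left out and the brightest probe kept for each gene. A gene was detected when the scanner software called its probe well above background in at least 1 line on both arrays, and 621 of the 1038 chromosome 13 genes on the arrays did not pass this filter. Of the 417, 384 were well above background in both lines, 27 only in B16F1-GFP-M and 6 only in B16F1-GFP-D. Their probes ran from position 3485060 to position 120274827.

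The 2 lines were derived from B16F1, a mouse melanoma line. B16F1-GFP-M is the maternal line, transfected to express green fluorescent protein (GFP), and B16F1-GFP-D was grown out from GFP-positive cells recovered from the organs of tumour-free mice that had been challenged with these cells about a year earlier. B16F1-GFP-D is 1 clone, and its founding cells came from the pooled organs of control and immunised animals. Both lines carry the GFP plasmid and its geneticin selection, and both were cultured untreated in DMEM with serum and antibiotics. Total RNA of the 2 lines was hybridised together on 2 Agilent arrays of 1 slide with the dyes exchanged, and no label names a second culture or extract. There was thus 1 replicate per line, and no difference could be tested. Errors given below are standard deviations (SD) between the 2 arrays, which hold the dye and scanning error and not the variation between cultures. Values are log2 ratios of the level in B16F1-GFP-D to that in B16F1-GFP-M, written for array 1 (B16F1-GFP-D in Cy3), array 2 (B16F1-GFP-D in Cy5) and their mean, so that 1 is a doubling and a negative value is a lower level in B16F1-GFP-D. Chromosome 13 was chosen by its median ratio over detected genes on these arrays, so that ratio and all values that follow from it are a description.

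All 9 melanocyte markers on the arrays were detected, with a median log2 ratio of 0.06, and none passed 2-fold. None of the 3 endothelial and none of the 3 epithelial markers was detected, whereas 1 of 5 fibroblast markers (Col1a2) and 3 of 6 leukocyte markers (Lyz2, Cd3e and Cd68) were. Well above background were between 44.1% and 60.7% of the spots of each channel, and no spot was saturated. In total RNA of a culture, fewer cells expressing a gene and less RNA per cell cannot be told apart.

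The probes behind the extremes of the chromosome are given here as printed on the array, 5′ to 3′ and in lower case, since every ratio below is a reading of 1 such 60-base oligonucleotide. Pfkp, Gmnn and Idi1 had 3 of the 4 highest ratios of the chromosome, Nfil3 had the lowest and Foxc1 was a developmental transcription factor past 2-fold. Positions are mm9, and the span of the Pfkp probe is longer than the probe itself. The mm9 gene annotation was not used here, so exon and intron positions are not given.
Pfkp, chr13:6581718-6583872, minus strand: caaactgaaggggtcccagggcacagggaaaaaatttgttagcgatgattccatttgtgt
Gmnn, chr13:24843852-24843911, minus strand: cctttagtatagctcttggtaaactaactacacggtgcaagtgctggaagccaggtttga
Idi1, chr13:8891386-8891445, plus strand: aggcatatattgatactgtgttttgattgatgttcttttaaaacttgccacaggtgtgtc
Nfil3, chr13:53062585-53062644, minus strand: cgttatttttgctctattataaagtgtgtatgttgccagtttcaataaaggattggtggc
Foxc1, chr13:31901257-31901316, plus strand: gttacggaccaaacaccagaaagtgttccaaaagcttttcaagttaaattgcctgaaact

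The detected genes of chromosome 13 were shifted as a body towards lower levels in B16F1-GFP-D. Their median log2 ratio was -0.21 on array 1 and -0.15 on array 2, whereas the 11366 detected genes of the other autosomes had medians of -0.03 and 0.02. The difference between chromosome 13 and the other autosomes was -0.18 on array 1 and -0.17 on array 2, and -0.17 ± 0.008 (SD between the 2 arrays, 1 replicate per line) for the mean ratio of each gene, or 11.2% lower. Both dye orientations thus gave almost the same difference. Its size depended on which genes were counted as detected. With detection judged on 1 array alone, which admits dimmer probes, it was -0.09 for array 1 and -0.11 for array 2, and with no filter on dim probes it was -0.03.

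Of the 417 genes, 257 (61.6%) were lower in B16F1-GFP-D on both arrays, beside 43% of all detected genes and 42.5% of those on the other autosomes. Among the 384 well above background in both lines, 231 (60.2%) were lower on both arrays. Higher on both arrays were 105 (25.2%), beside 40.9% of all detected genes and 41.2% on the other autosomes, and the other 55 had opposite signs. The 2 arrays ranked the chromosome 13 genes alike, with correlations of 0.94 (Pearson) and 0.89 (Spearman) across the 417 genes, which share both arrays and are not independent replicates. The SD between arrays pooled over genes was 0.14 on chromosome 13 and 0.15 on the other autosomes, close in size to the median difference itself, so the sign of a single gene near the median was not resolved.

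The shift was spread over the whole distribution. It was -0.17 at the 25th percentile, -0.20 at the 75th and -0.16 at the 90th, whereas the 95th percentile, where the most increased genes lie, differed by -0.12. All detected genes were also put in 4 classes of equal size by brightness. The 118 chromosome 13 genes of the dimmest class had a median of -0.18, the next 2 classes -0.09 and -0.32, and the 88 of the brightest class -0.22. In the other autosomes the medians of these classes lay between -0.03 and 0.01. Genes probed on the plus strand had a median of -0.23 and those on the minus strand of -0.17.

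Chromosome 13 had the lowest median of the 19 autosomes, but not by a clear margin. Chromosome 17 (610 genes) had a median of -0.19 on array 1 and -0.14 on array 2, and chromosome 3 (585 genes) of -0.17 and -0.13. The next chromosome, 18, was at -0.07 and -0.05, and the remaining autosomes had mean-ratio medians between -0.03 and 0.04. Chromosomes 13, 17 and 3 were therefore set apart from the other 16 on both arrays, and the distance between chromosomes 13 and 17 was smaller than the difference between the arrays. Chromosome 17 came out lowest, and chromosome 13 second, when the median over the probes of each gene was used, when Hist1h genes were included or when both lines had to be well above background.

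**Figure D1:**
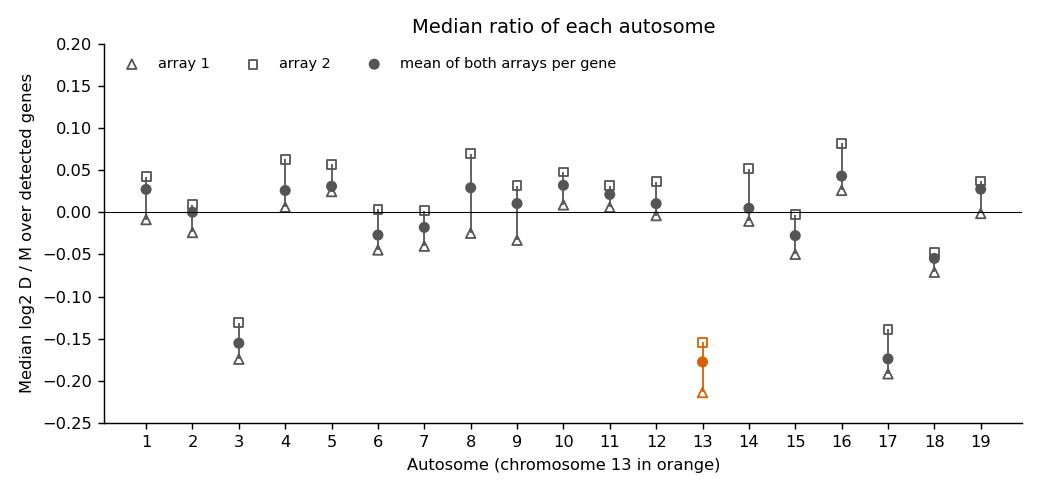
Median log2 ratio (level in B16F1-GFP-D to level in B16F1-GFP-M) over the detected genes of each of the 19 autosomes (y axis) against chromosome number (x axis), with triangles for array 1, squares for array 2 and filled circles for the mean ratio of each gene. Chromosomes 13, 17 and 3 lie between -0.21 and -0.13 on the 2 arrays, and the lowest value of any other autosome is -0.07.

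Along the chromosome the lower levels were not limited to 1 segment. The 417 genes were divided in order of position into 16 blocks of 25 and a last block of 17. The median was below that of the other autosomes in 16 of the 17 blocks. The exception was the first block, from 3.49 to 12.7 Mb, which runs from 2810429I04Rik to the transcript AK044196. Its median was 0.04 on array 1 and 0.08 on array 2, with 13 genes higher and 9 lower on both arrays. It holds the phosphofructokinase gene Pfkp, the isoprenoid isomerase gene Idi1 and the aldo-keto reductase gene Akr1c19, which had its 3 highest ratios. Block 11, from 67.99 to 74.5 Mb, was the only other one with a median above 0 on either array, at -0.11 on array 1 and 0.06 on array 2.

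The lowest block, the tenth, ran from 64.5 to 67.96 Mb and had medians of -0.34 and -0.35, with 18 of its 25 genes lower on both arrays and 2 higher. Every window of 25 neighbouring genes was then read along the chromosome. The lowest of the 393 windows lay between Habp4 and Zfp729a (64.3 to 67.7 Mb) at -0.44, with 19 of 25 genes lower on both arrays and 0 higher. Its 3 lowest genes were Prxl2c, a peroxiredoxin-like gene, Ctsl, the lysosomal protease cathepsin L, and Zfp729a. Of the 393 windows, 96.4% had a median below that of the other autosomes, beside 91.0% of the windows of chromosome 17, 78.6% of those of chromosome 3 and 77.4% of those of chromosome 18; overlapping windows share genes. In windows of 15 genes the extremes moved, and the lowest, -0.56, lay between 55.6 and 58.5 Mb, while the highest, 0.21, lay between 24.8 and 30.6 Mb around Gmnn and Mboat1. In windows of 50 genes all 368 medians were below 0, from -0.37 to -0.05, as were 99.6% of those of chromosome 17 and 97.9% of those of chromosome 18, beside 81.9% on chromosome 3.

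The last block, from Ccno to 4833420G17Rik (113.8 to 120.3 Mb), had 16 of its 17 genes lower on both arrays and 0 higher. The longest run of neighbouring genes that were lower on both arrays overlapped it, with 19 genes from Il6st, the shared signalling receptor of the interleukin-6 family, to Nnt, the mitochondrial nicotinamide nucleotide transhydrogenase. The median of this run was -0.24. The longest run of genes higher on both arrays had 5 members, from Prelid1 to Grk6 near 55.4 Mb. It was led by Mxd3 at 1.55 and Prelid1 at 0.55, whereas the other 3 were between 0.12 and 0.35.

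**Figure D2:**
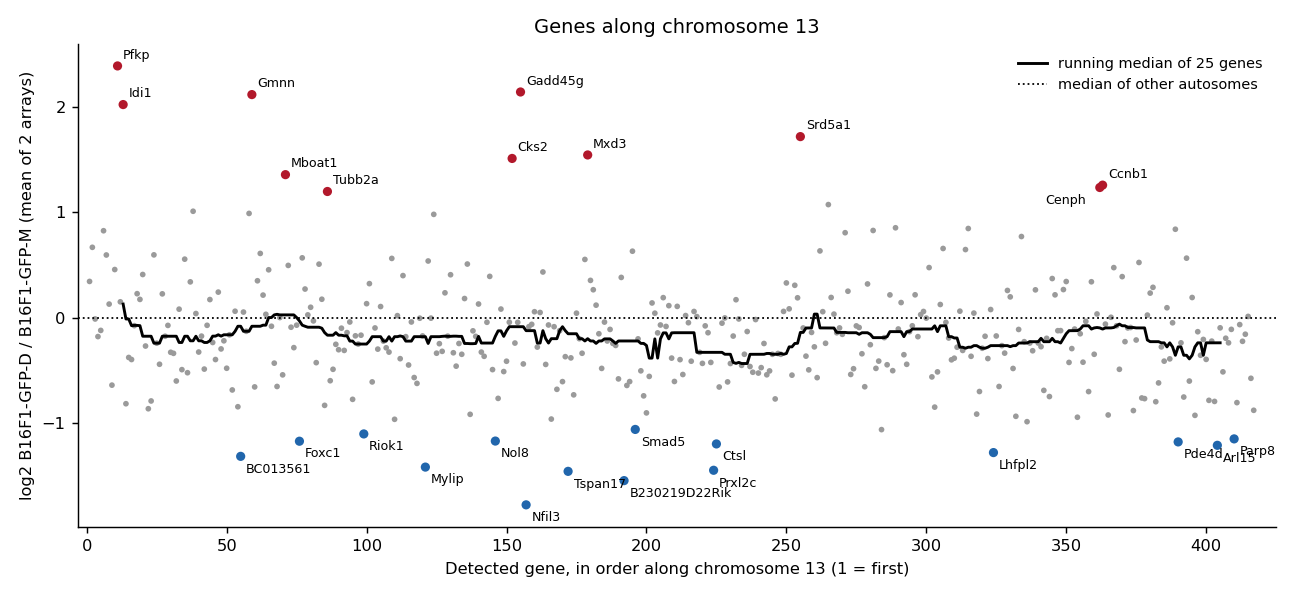
Mean over the 2 arrays of the log2 ratio, D line to M line (y axis), for the 417 detected chromosome 13 genes in order of position (x axis), with genes at least 2-fold higher on both arrays in red and at least 2-fold lower in blue. The running median of 25 genes (black line) stays below the median of the other autosomes (dotted line) in 96.4% of its windows, while the named red and blue genes are scattered along the chromosome.

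**Figure D3:**
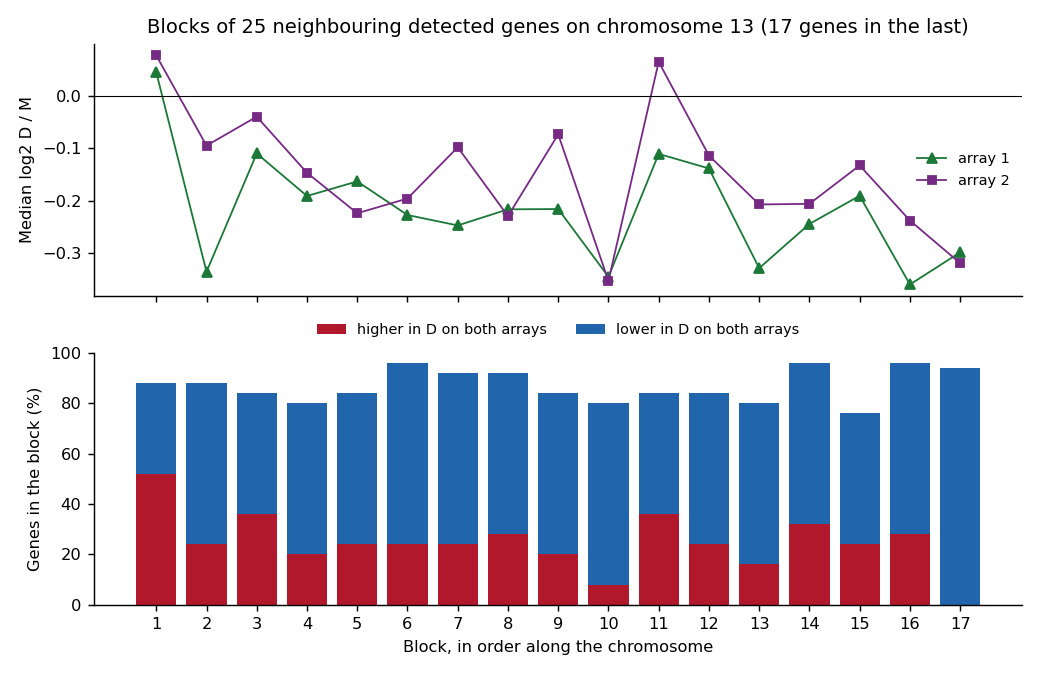
Upper plot, median log2 ratio on array 1 (triangles) and array 2 (squares) in each of 17 successive blocks of chromosome 13 genes (x axis). Lower plot, percent of the genes of each block that were higher (red) or lower (blue) in the D line on both arrays. The first block is above 0 on both arrays, and the last has no gene higher on both.

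Large differences were few. On both arrays 11 genes (2.64%) were at least 2-fold higher in B16F1-GFP-D, beside 3.13% of all detected genes and 3.14% of those on the other autosomes. At least 2-fold lower were 15 genes (3.6%), beside 1.94% and 1.93%. The number called depended on the threshold. At 1.5-fold 24 genes (5.76%) were higher and 59 (14.1%) lower, beside 8.74% and 6.94% on the other autosomes, and at 3-fold 5 (1.2%) were higher and 1 (0.24%) lower, beside 0.58% and 0.42%. It also depended on the normalisation, and median centring in place of loess left 4 higher genes (Pfkp, Gadd45g, Gmnn and Srd5a1) and 0 lower ones. With the median over the probes of each gene, Srd5a1, Cenph, Tubb2a, Mylip, Arl15, Pde4d, Nol8, Riok1 and Smad5 were no longer past 2-fold on both arrays. Trip13 lay just outside the 2-fold line with 0.92 and 1.23 on the arrays, and Smad5 just inside with -1.11 and -1.02.

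**Figure D4:**
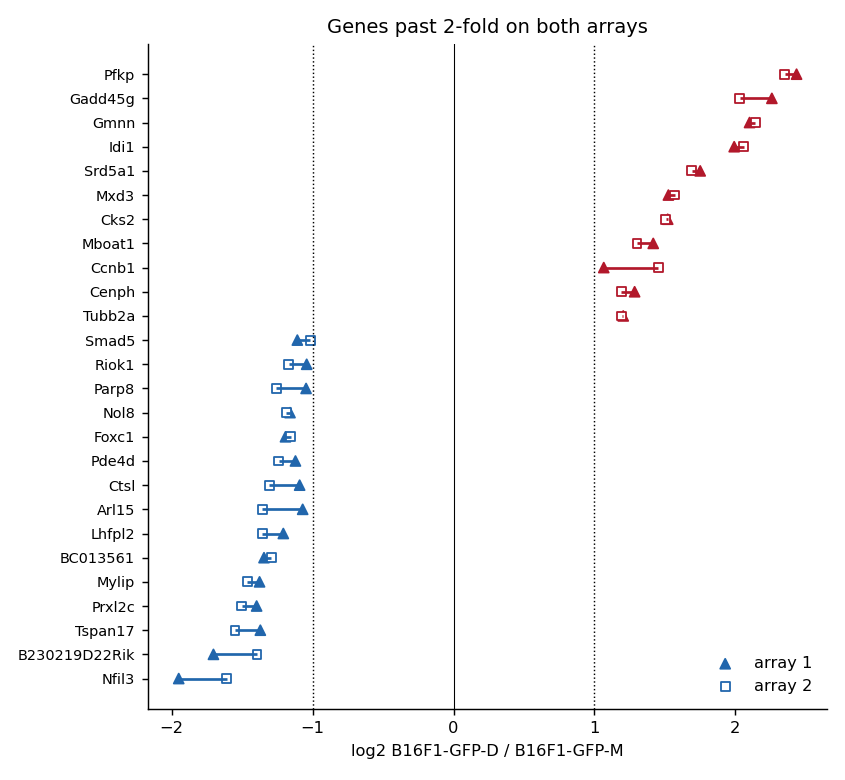
Log2 ratio of the D line to the M line on array 1 (triangles) and array 2 (open squares) for the 26 chromosome 13 genes (y axis) past 2-fold on both arrays, with dotted lines at 2-fold. Red genes were higher and blue genes lower in B16F1-GFP-D, and the largest distance between the 2 arrays is that of Ccnb1, 1.07 and 1.45.

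Of 23 listed cell cycle and mitosis genes on the arrays, 21 were detected, and 5 of them were past 2-fold upwards, beside 3.13% of all detected genes, and 0 downwards. On both arrays 10 of the 21 were higher and 11 lower, beside 40.9% and 43% of all detected genes. Gadd45g, a gene induced by growth arrest and DNA damage, was at 2.26 on array 1 and 2.03 on array 2, or 4.42-fold higher. Gmnn, encoding geminin, which restrains the licensing of replication origins, was at 2.10 and 2.14, or 4.35-fold. Cks2, a small subunit of cyclin-dependent kinases, was at 1.52 and 1.51, and its second probe at 1.13 and 1.93, with an SD of 0.56. The brightest probes of these 3 genes had ratios far above the SD between their arrays, which was 0.16 or less.

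Ccnb1, encoding the mitotic cyclin B1, and its neighbour Cenph, encoding a kinetochore protein, lay next to each other among the detected genes, with probes starting at 101548974 and 101534182. Ccnb1 was at 1.07 and 1.45, and its other 2 probes had mean ratios of 1.76 and 1.31. Cenph was at 1.28 and 1.19. Below 2-fold on at least 1 array but higher on both were Trip13 (mean 1.07), a checkpoint ATPase, Depdc1b (0.84), the kinetochore gene Cenpk (0.52), the chromatin gene Dek (0.41) and the centrosome gene Cep72 (0.03).

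The lowest was Ccnh, a cyclin of the CDK-activating kinase, at -0.97 and -0.73, but its other 2 probes were at -0.30 and -0.10. Ccno, at -0.93 and -0.64, was not well above background in B16F1-GFP-D on both arrays, so it passed the filter through B16F1-GFP-M. The lower genes also included Cdk20 (mean -0.66), the microtubule motor gene Kif2a (-0.62) and the transcription factor gene E2f3 (-0.54). The other probes of Cdk20, Kif2a and E2f3 were all below 0 and nearer to it, from -0.53 to -0.14. Cdk7, the kinase partner of Ccnh, was at -0.35. With 10 of the 21 higher and 11 lower on both arrays, the list median of -0.24 was not stable. It was 0.03 when both lines had to be well above background. Among 27 proliferation genes of other autosomes, 26 passed 2-fold upwards, beside 3.13% of all detected genes. All 27 proliferation genes were higher on both arrays, with a median of 1.49. Their part in the chromosome 13 values was not tested. With the listed cell cycle and proliferation genes left out, the difference between chromosome 13 and the other autosomes was -0.17. This removed 21 of the 417 chromosome 13 genes and the 27 proliferation genes among 11366 genes elsewhere. So few genes could hardly move either median, and the value says nothing of their part.

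The promoters of Ccnb1, Cenph and Cks2, which were higher together, and of Idi1 are printed from the RefSeq table for GRCm38.p6 (250 bases before to 50 after the start, 5′ to 3′ on the gene's strand); their coordinates are of that build and not of mm9. Capitals mark CCAAT or its complement ATTGG and, in Cenph, also TTCCCGC on the other strand, which reads GCGGGAA. The Gmnn promoter was not among those matched.
Cks2, chr13:51644982-51645281, plus strand: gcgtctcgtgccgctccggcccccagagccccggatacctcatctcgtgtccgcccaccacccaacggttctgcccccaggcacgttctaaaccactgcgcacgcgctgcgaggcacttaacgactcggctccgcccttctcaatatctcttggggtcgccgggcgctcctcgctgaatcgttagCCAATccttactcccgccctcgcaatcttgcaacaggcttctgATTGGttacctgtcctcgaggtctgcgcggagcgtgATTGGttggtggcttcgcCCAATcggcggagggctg
Ccnb1, chr13:100786437-100786736, minus strand: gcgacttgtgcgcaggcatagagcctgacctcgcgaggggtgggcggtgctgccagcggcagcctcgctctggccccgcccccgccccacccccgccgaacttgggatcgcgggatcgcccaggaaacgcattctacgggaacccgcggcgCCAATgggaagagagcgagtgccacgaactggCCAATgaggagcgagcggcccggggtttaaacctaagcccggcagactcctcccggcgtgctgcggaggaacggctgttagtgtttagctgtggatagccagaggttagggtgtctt
Cenph, chr13:100775850-100776149, minus strand: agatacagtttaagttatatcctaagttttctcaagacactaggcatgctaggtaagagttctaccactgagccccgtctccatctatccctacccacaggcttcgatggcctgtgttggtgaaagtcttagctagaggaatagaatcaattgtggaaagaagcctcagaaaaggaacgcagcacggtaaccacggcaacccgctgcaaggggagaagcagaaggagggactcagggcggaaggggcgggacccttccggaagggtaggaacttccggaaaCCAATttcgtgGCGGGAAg
Idi1, chr13:8885356-8885655, plus strand: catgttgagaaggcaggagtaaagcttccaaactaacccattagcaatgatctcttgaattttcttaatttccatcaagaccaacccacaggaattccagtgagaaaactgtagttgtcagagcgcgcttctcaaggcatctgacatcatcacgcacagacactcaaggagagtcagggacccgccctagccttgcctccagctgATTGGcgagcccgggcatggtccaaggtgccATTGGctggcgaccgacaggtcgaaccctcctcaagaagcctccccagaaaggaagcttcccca
CCAAT, the core of the sites bound by the factor NF-Y, was searched on both strands. It occurred 4 times in the Cks2 window, 2 times in those of Ccnb1 and Idi1 and 1 time in that of Cenph. At least 1 match was found for 8 of the 10 increased genes with a promoter in the table and for 6 of the 14 decreased ones. The background was 37.4% of all 32841 promoters of this length and 40.8% of the 326 detected chromosome 13 genes with a promoter. TTCCCGC, a form of the E2F site, was found for 3 of the 10 (Cenph, Mboat1 and Mxd3) and 0 of the 14, beside 4.6% of all promoters and 11.3% of the chromosome 13 genes. TTTGAA, a form of the cell cycle genes homology region, was found for 0 of the 10 and 3 of the 14, beside 17.9% of all promoters. A match is a stretch of letters and does not show binding.

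Genes of sterol, lipid and carbon metabolism were the listed group with a median above 0. Of 33 on the arrays 19 were detected, 12 were higher and 5 lower on both arrays, and 3 passed 2-fold, all upwards. Higher on both arrays were 40.9% of all detected genes and 25.2% of those on chromosome 13, and lower were 43% and 61.6%. Past 2-fold upwards were 3.13% and 2.64%. The list median was 0.39, beside -0.18 for all detected chromosome 13 genes. Pfkp, the platelet-type phosphofructokinase of glycolysis, had the highest ratio of the chromosome, 2.43 on array 1 and 2.35 on array 2, or 5.25-fold. Its other 2 probes gave 1.74 and 0.74, the widest range among genes with several probes, all of 1 sign. Idi1, which isomerises isopentenyl diphosphate in the mevalonate pathway, was at 1.99 and 2.06, or 4.07-fold, with a second probe at 1.58. Srd5a1, a steroid reductase, was at 1.75 and 1.69.

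The glutaredoxin gene Glrx (mean 0.83) and 2 aldo-keto reductase genes of the first block, Akr1c19 (0.83) and Akr1c12 (0.60), were also higher on both arrays without passing 2-fold. The Akr1c genes are close relatives, and a probe may read more than 1 of them. The lowest member was Ppap2a, a lipid phosphatase, at -0.52 and -0.19. Of the 19 sterol synthesis genes of other autosomes that were detected, 17 were higher on both arrays, beside 40.9% of all detected genes. Upwards past 2-fold were 9, beside 3.13%, and the median of the 19 was 0.96. Outside the lists, the lysophospholipid acyltransferase gene Mboat1 was at 1.42 and 1.30, and Mxd3, a MAX-binding repressor of the MYC network, at 1.52 and 1.57. Tubb2a, a beta tubulin, was at 1.20 and 1.19, but another of its probes was at 0.08, and near-identical tubulin genes may share its signal.

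Zinc finger genes had the largest share of members lower on both arrays among the lists with at least 10 detected genes. Most encode DNA-binding proteins with tandem zinc fingers, many of them repressors, and they stand in clusters of recent duplicates. Here they were taken by a name beginning Zfp, Rsl, Zkscan or Zscan, so zinc finger genes under other names were not counted. Of 37 listed on the arrays 28 were detected, of which 26 were lower on both arrays, 1 was higher (Zfp273, 0.10 and 0.02) and 1 had opposite signs (Zfp429). The share lower on both arrays was 92.9%, beside 61.6% of all detected chromosome 13 genes. Zkscan8, Zfp874b, Zfp455, Zfp708 and Zfp58 passed the filter only through B16F1-GFP-M, and of the 23 well above background in both lines 21 were lower on both arrays (91.3%, beside 60.2% of all such chromosome 13 genes). None passed 2-fold. The list median came to -0.44 on array 1 and -0.37 on array 2, and to -0.46 for the mean ratio of each gene; it was -0.85 with the scanner's own ratios, -0.74 with a normexp offset of 0 and -0.40 in the 23 genes. The lowest genes were Zfp729a (-0.83 and -0.72, with other probes from -0.48 to -0.14), Zfp346 (-0.76 and -0.70), Zfp322a (-0.69 and -0.68) and Zfp369 (-0.68 and -0.54).

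The zinc finger genes were lower inside and outside their main cluster. Of the 19 between 62 and 68 Mb, 17 were lower on both arrays with a median of -0.45, and of the 9 elsewhere all were, with a median of -0.46. The other 23 genes between 62 and 68 Mb, which may include zinc finger genes under other names, had a median of -0.14. On both arrays 12 of them were lower and 3 higher. Low values were also found for zinc finger genes of the rest of the genome. On the other autosomes 206 of 270 (76.3%) were lower on both arrays, with a median of -0.32, and on chromosome 17 the median of 36 was -0.45. With the genes of these names left out on every chromosome, the difference between chromosome 13 and the other autosomes was as large, -0.17. Of the remaining 389 genes, 59.4% were lower on both arrays, beside 41.7% on the other autosomes.

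Because zinc finger genes resemble each other, each of the 28 probes was set against all other probes on the array at every shift of up to 20 bases. The most identical bases any of them had with a probe of another gene was 45. At larger shifts fewer bases were compared, and the probes were not set against the transcripts of related genes. These counts therefore do not show that a probe reads 1 gene only. The probe of Zfp729a shared 45 of 50 compared bases with that of the transcript entry NAP103569-1, which has no position in the files, and 45 of 53 with that of Zfp595, marked here in capitals. Whether these probes share signal was not tested. Zfp729a and Zfp595 were at -0.77 and -0.52 in the mean.
Zfp729a, chr13:67721386-67721445, minus strand: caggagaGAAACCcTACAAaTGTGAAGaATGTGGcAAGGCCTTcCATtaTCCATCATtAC
Zfp595, chr13:67418178-67418237, minus strand: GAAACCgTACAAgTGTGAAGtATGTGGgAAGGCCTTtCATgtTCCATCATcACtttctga

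Genes of ribosome assembly, RNA processing and translation followed the chromosome. All 28 listed were detected, and 21 were lower and 4 higher on both arrays. The shares over all detected chromosome 13 genes were 61.6% and 25.2%. The list median was -0.21, beside -0.18 for the chromosome. Nol8, a nucleolar protein of ribosome biogenesis, passed 2-fold at -1.16 and -1.19, with its second probe at -0.96. Nsa2 (-1.06 and -0.92), Dimt1 (-0.80 and -0.80), which act in the maturation of ribosomal subunits, and Iars (-0.77 and -0.76), an isoleucyl-tRNA synthetase, did not pass it. Further probes of these 3 were nearer to 0, at -0.41 and -0.02 for Nsa2, -0.20 for Dimt1 and -0.37 for Iars. Riok1, a kinase of small-subunit maturation outside the list, was at -1.04 and -1.17. The highest member was Ddx46, a splicing helicase, at 0.34 and 0.43.

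Among 13 detected genes of DNA replication and repair, 8 were lower and 3 higher on both arrays. Of all detected chromosome 13 genes, 61.6% were lower and 25.2% higher. Parp8, of the poly(ADP-ribose) polymerase family, passed 2-fold at -1.05 and -1.26, and the translesion polymerase gene Polk (-0.96 and -0.91) and the checkpoint gene Rad17 (-0.86 and -0.55) followed. The higher genes included Msh3 (0.47 and 0.83, with other probes at 0.15 and 0.21), a mismatch repair gene, and Tdp2 (0.56 and 0.66). Of 20 detected mitochondrial genes 11 were lower and 8 higher on both arrays, none past 2-fold, from Mtx3 (-1.01 and -0.82) to Sdha (0.55 and 1.06), a subunit of succinate dehydrogenase. The probes of Sdha differed by 0.97 and in sign.

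Nfil3, a basic leucine zipper repressor, was the lowest gene of the chromosome, at -1.95 on array 1 and -1.61 on array 2, or 3.43-fold lower. Of 25 developmental transcription factor genes on the arrays, 11 were detected, and Nfil3 and the forkhead gene Foxc1 (-1.19 and -1.16, or 2.26-fold lower) passed 2-fold. Past 2-fold downwards were 1.94% of all detected genes and 3.6% of those on chromosome 13. On both arrays 3 of the 11 were lower and 3 higher, beside 61.6% and 25.2% of all detected chromosome 13 genes. Sox4 was at -0.68 and -0.63. The median of the 11 was near 0, and the highest was the Hedgehog effector gene Gli3 at 0.09 and 0.59. Of 37 signalling genes 15 were detected. Of these, 11 were lower and 1 higher on both arrays, beside 61.6% and 25.2% of all detected chromosome 13 genes. Smad5, which transmits bone morphogenetic protein signals, was past 2-fold, with its other 2 probes at -0.86 and -0.33, and Il6st (-1.08 and -0.77) and Pik3r1 (-0.87 and -0.98), the regulatory subunit of phosphoinositide 3-kinase, whose other probes were between -0.52 and -0.40, were close to it. The highest was Map3k1 at 0.14 and 0.25.

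Among the remaining decreased genes, Mylip, a ubiquitin ligase that marks the LDL receptor for degradation, was at -1.38 and -1.46, but its second probe was at -0.52. Ctsl was at -1.09 and -1.31 and Prxl2c, the detected gene just before it on the chromosome, at -1.40 and -1.50. Tspan17, a tetraspanin gene, was at -1.37 and -1.55, the uncharacterised B230219D22Rik at -1.70 and -1.39, and Pde4d, a cyclic AMP phosphodiesterase, at -1.12 and -1.24. Arl15, a small GTPase of the ARF-like family, was at -1.07 and -1.36, with its second probe at -0.26. Lhfpl2 was well above background in B16F1-GFP-D on 1 array only. A floor was set per array by the higher of the dimmest detected signal and its own. Its own signal set that floor, so the 2.43-fold lower level is the measured ratio (-1.21 and -1.36).

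BC013561, at -1.34 and -1.29, stands beside a histone gene that the rule on names left out. Its probe starts at 23832138 and that of Hist1h1c ends at 23832077 on the same strand, and Hist1h1c, a linker histone gene, was at -1.29 and -1.35. Whether the probes read 1 transcript cannot be told apart here. Without BC013561 the number of genes past 2-fold downwards was 14.

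Other listed groups had few detected members. Of 7 pigment and melanosome genes 5 were detected, with Ap3b1, a subunit of the adaptor that sorts melanosome proteins, at -0.69 and -0.62, Bloc1s5 at -0.72 and -0.50, and Tfap2a the highest at -0.07 and 0.28. Of 6 detected matrix and adhesion genes 5 were lower on both arrays, from Emb (-0.92 and -0.69), an immunoglobulin-family glycoprotein, to Edil3 (0.01 and -0.10). Of 7 detected transporter genes 6 were lower on both arrays, from Slc35d2 (-0.45 and -0.41) to Slc30a5 (-0.19 and 0.07). The share lower on both arrays was 61.6% among all detected chromosome 13 genes. Of 24 genes of the serpin and cathepsin clusters 4 were detected, Ctsl and 3 Serpinb6 genes within 0.10 of 0 in the mean, and of the 23 prolactin family genes 0 were detected.

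**Figure D5:**
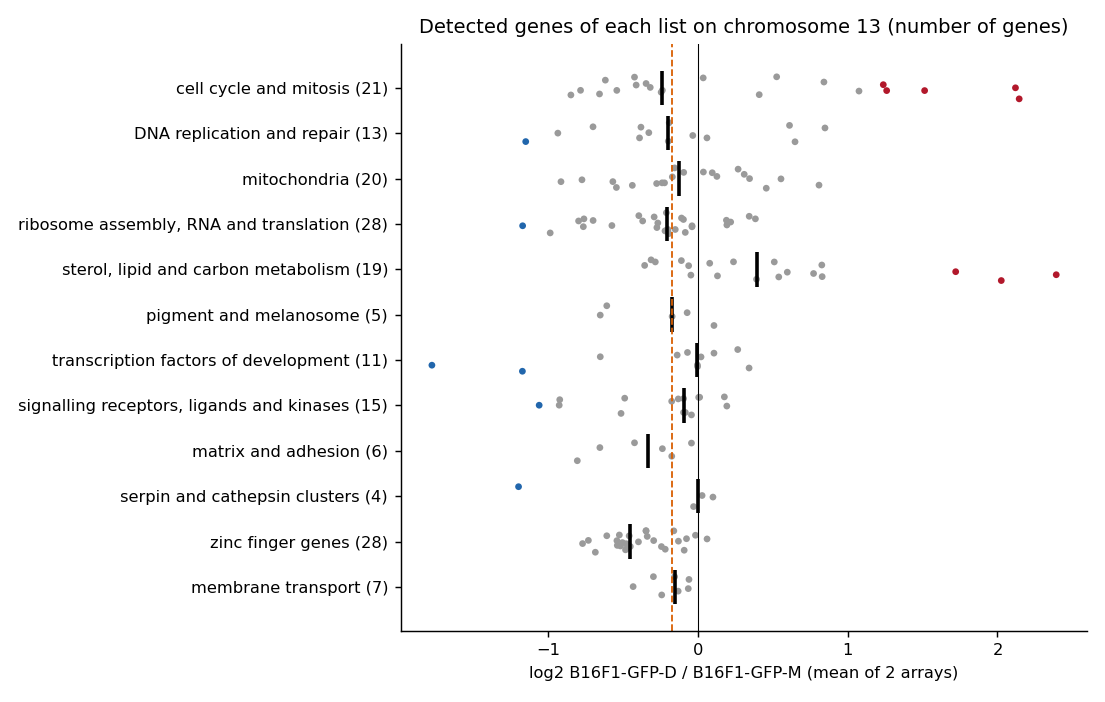
Mean log2 ratio of the D line to the M line (x axis) for each detected gene (point) of 12 lists of chromosome 13 genes (y axis, with the number detected), with black bars for list medians and an orange dashed line for the median of all detected chromosome 13 genes. Red and blue points were past 2-fold on both arrays, the zinc finger points crowd between -0.77 and 0.06, and the sterol, lipid and carbon list has its bar above 0.

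Where several probes read 1 gene, they mostly shared its direction. Of 180 genes with at least 2 detected probes, all probes had 1 sign in 140, and 200 of the 248 further probes (80.6%) had the sign of the brightest. The largest disagreements in sign were in Macroh2a1, a histone variant gene, whose 3 probes were at 0.63, 0.64 and -0.80, and in Pak1ip1, at -0.33, -0.27 and 0.98.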

How the data were processed

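Total RNA from the B16F1-GFP-D line was hybridised against that of the B16F1-GFP-M line on 2 Agilent 2-colour mouse arrays of 1 slide with exchanged dyes. Per the file headers the authors scanned them and extracted the spots with Feature Extraction 10.7.3.1, and deposited for each array the mean and background intensities of both channels and a log10 ratio of red to green after that software's own correction; the series value table deposited by the authors holds the same log10 ratio to within rounding and was an alternative. The probe positions are mm9.

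From the intensities, background was corrected with normexp (offset 50) and ratios were normalised within each array by loess in limma 3.58.1 (R 4.3.3), then turned so that B16F1-GFP-D was the numerator, and averaged. The offset pulls the ratios of dim probes towards 0. Control spots and 143 and 176 outlier spots were left out, and replicate spots of a probe were averaged. Each GeneName on a chromosome was 1 gene, read by its brightest probe. Symbols were taken through the RefSeq accession where one matched the GRCm38.p6 table (27198 of 28075 probes with an accession; 348 of the 417 genes, of which 34 were renamed) and kept as in the files otherwise.

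A call needs a 2-fold difference on each array in a detected gene. With 1 replicate per line no test was run, and precision is limited by there being 2 arrays. The genes named are the highest and lowest past 2-fold, the called, highest and lowest members of each list, those at the edges and extremes of the lowest and highest windows, and those whose probes disagree most; further list members were chosen after their values were seen. Some listed genes are not reported here. The chromosome and the gene lists were chosen with earlier results of these data known. The normalisation and calls were run on simulated arrays in which every chromosome 13 probe had the same shift, larger than the one observed. Recovery of a shift as small as that observed was not tested.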

Additional observations from a re-analysis of the deposited data

How the results depend on the processing

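No paired analysis was possible because there was only 1 replicate of either line, and both were on every array. The difference between the medians of chromosome 13 and the other autosomes, -0.17, was used to choose the chromosome, so its sign under other settings is a description. It was -0.24 with the scanner's own ratios and the value table, which repeats them, -0.23 with a normexp offset of 0, -0.19 with no background subtraction, with median centring, with RefSeq-matched genes only and without chromosomes 3 and 17 among the others, -0.16 with Hist1h genes, -0.12 with the median over the probes of each gene and -0.026 with no filter on dim probes; leaving out an array gave -0.114 to -0.091. The share of genes lower on both arrays, 61.6%, was 39.4% with no filter on dim probes (31.7% on the other autosomes) and 11.0% with median centring (5.29%), and 59.1% to 68.8% on 1 array. Genes called higher, 11, were 23 with the scanner's ratios or the value table (5.52%, beside 6.08% and 6.07% on the other autosomes), 18 with an offset of 0 (4.32%, beside 5.12%), 4 with median centring (0.959%, beside 0.361%), 24 at 1.5-fold (5.76%, beside 8.74%), 5 at 3-fold (1.2%, beside 0.581%), and 11 to 16 on 1 array. Genes called lower, 15, were 37 with the scanner's ratios or the value table (8.87%, beside 4.69% and 4.66%), 0 with median centring (beside 0.167%), 9 with the median over probes (2.16%, beside 1.29%), 59 at 1.5-fold (14.1%, beside 6.94%), 1 at 3-fold (0.24%, beside 0.422%), and 17 to 20 on 1 array. Leaving out an array, dropping the dim filter and scaling between arrays cannot remove a call. Of the alternatives that can, all 26 genes kept theirs with the scanner's ratios, an offset of 0 and no background subtraction, 25 with detection required in both lines, 17 with the median over probes and 4 with median centring, which does not correct the ratio for brightness as loess does. The medians of the cell cycle, mitochondria, developmental factor, and serpin and cathepsin lists changed sign under at least 1 alternative, and others moved widely, from -0.85 to -0.32 for zinc finger, -0.68 to -0.06 for matrix, -0.45 to -0.11 for repair, -0.39 to -0.04 for signalling and 0.08 to 0.51 for sterol, lipid and carbon genes. The 2 alternatives without zinc finger or cell cycle genes were chosen after seeing the data. Probes near background have ratios drawn to 0, so differences in dim genes were not resolved.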

Other observations

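The replication-dependent histone genes of chromosome 13, which the rule left out by name, behaved differently from the rest of the chromosome. Of 27 Hist1h genes on the arrays 20 were detected, 16 were higher and 2 lower in the D line on both arrays, and the median log2 ratio was 0.42. None passed 2-fold upwards. The highest was H2ac15 (Hist1h2ak), with 1.06 on array 1 and 0.82 on array 2, followed by H2ac13 (1.03 and 0.76), and the lowest was the linker histone gene H1f2 (Hist1h1c) at -1.29 and -1.35. These genes are close copies of each other, and a probe may read several of them. A further 11 probes were placed on chromosome 13 sequence without a position, of which 6 were detected, and they were not used in any comparison.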
